A study of Mus musculus with 11 samples.

Results

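The genes described here encode subunits of 3 machines that a secretory protein meets as it enters the endoplasmic reticulum (ER). They are the channel subunits Sec61a1, Sec61b and Sec61g, the translocon-associated protein (TRAP) subunits Ssr1, Ssr2, Ssr3 and Ssr4, and the signal peptidase subunits Spcs1, Spcs2 and Spcs3. They were taken by name, as all probe sets of these 10 genes, with earlier results of these data known. A probe set is the group of short array probes that reads 1 transcript. Of the 10 genes, 9 had at least 1 probe set of their own, out of 18193 genes with one on the array. These 9 genes had 23 probe sets between them, and 22 of these were bright enough to be tested. The probe set left out, 1427500_at of Spcs1, had a mean signal under the limit of 6.86 on the log2 scale. Sec61g is listed only on a probe set shared with the genes Gm11575 and Gm10177, so no value is given for it. A second probe set of Sec61b, is shared with Gm10320 and was not used.

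The SEC61 channel spans the ER membrane and lets newly made proteins with a signal peptide pass into the lumen or move sideways into the membrane. The TRAP complex sits beside the channel and helps proteins whose signal peptides open it poorly, and signal peptidase cuts the signal peptide off. In the pancreas this route carries the digestive enzymes of acinar cells, which make up most of the gland, and the hormones of islet cells.

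The samples were whole pancreases of Balb/C females aged 30 days, and RNA of each was read on its own Affymetrix array, 11 in all. The dams ate a diet with 20% protein (control) or an isocaloric diet with 8% protein (low protein) during gestation, and all dams ate the control diet from birth, so every group shares that later diet. The offspring were injected on days 1 to 5 of life with streptozotocin (STZ, 35 mg per kg body weight), which is toxic to insulin-producing β cells, or with vehicle (sham). The groups used were control sham (20% protein, vehicle; n = 3), control STZ (20% protein, STZ; n = 2, replicates 1 and 3), low protein sham (8% protein, vehicle; n = 3) and low protein STZ (8% protein, STZ; n = 3). Control STZ replicate 2 was not used here. The labels call the samples biological replicates and do not give the litter. Since the diet was given to dams, litter and diet cannot be told apart. In RNA of a whole organ, fewer cells of a type and less RNA per cell cannot be told apart.

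Values are the authors' deposited log2 signals, so a difference of 1 is a 2-fold change. Each gene is described by its brightest probe set, and other probe sets are given beside it. Signals of different genes are not compared, since probes differ in how brightly they bind. Groups were compared in 1 linear model with limma over 33777 probe sets, with p-values adjusted over all of them by Benjamini-Hochberg and a threshold of 0.05. Errors of group means are SDs over arrays, and errors of differences are standard errors (SE) of the model.

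The arrays were alike in median signal (7.92 to 7.97) and correlated at 0.983 to 0.995 within groups. They differed at the bright end. The share of probe sets with a log2 signal above 11 was 2.95% to 3.71% in the 5 control diet arrays and 2.16% to 3.26% in the 6 low protein arrays. The mean signal of the hybridisation controls, which are foreign transcripts put in at a set amount, was 11.34 to 11.89 in control diet arrays and 10.88 to 11.50 in low protein arrays. Low protein STZ 1 stood apart from the rest. It had the smallest share of bright probe sets, lay at 1 end of the first principal component (36.1% of the variance; control sham 1 lay at the other) and had the lowest signal of all 11 arrays for 9 of the 9 subunit genes. Markers of acinar cells were bright, as the label pancreas requires: 16 of 19 had a probe set of their own and 0 of these had a mean over the 11 arrays at or under the limit.

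The contrast of the diets asks what protein restriction before birth left in the pancreas weeks later. Averaged over sham and STZ arrays, all 9 subunit genes had lower mean signals in low protein than in control diet pancreas in the values as deposited, by 1.23-fold (Ssr1) to 1.65-fold (Sec61b), and under 2 rescalings given later Sec61a1 and Ssr1 did not. With limma, none of the 22 probe sets passed the threshold (0% of the 33777 tested passed), and 10 of 22 had an unadjusted p under 0.05, all lower. The background of probe sets lower at that p was 9.79%. The median difference over the 9 genes was -0.51, against -0.02 over all probe sets tested, where 59.7% were below 0. For 3 genes, Sec61b, Ssr4 and Spcs1, the highest of the 6 low protein arrays was under the lowest of the 5 control diet arrays, a pattern shown by 2.24% of all probe sets tested.

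**Figure D1:**
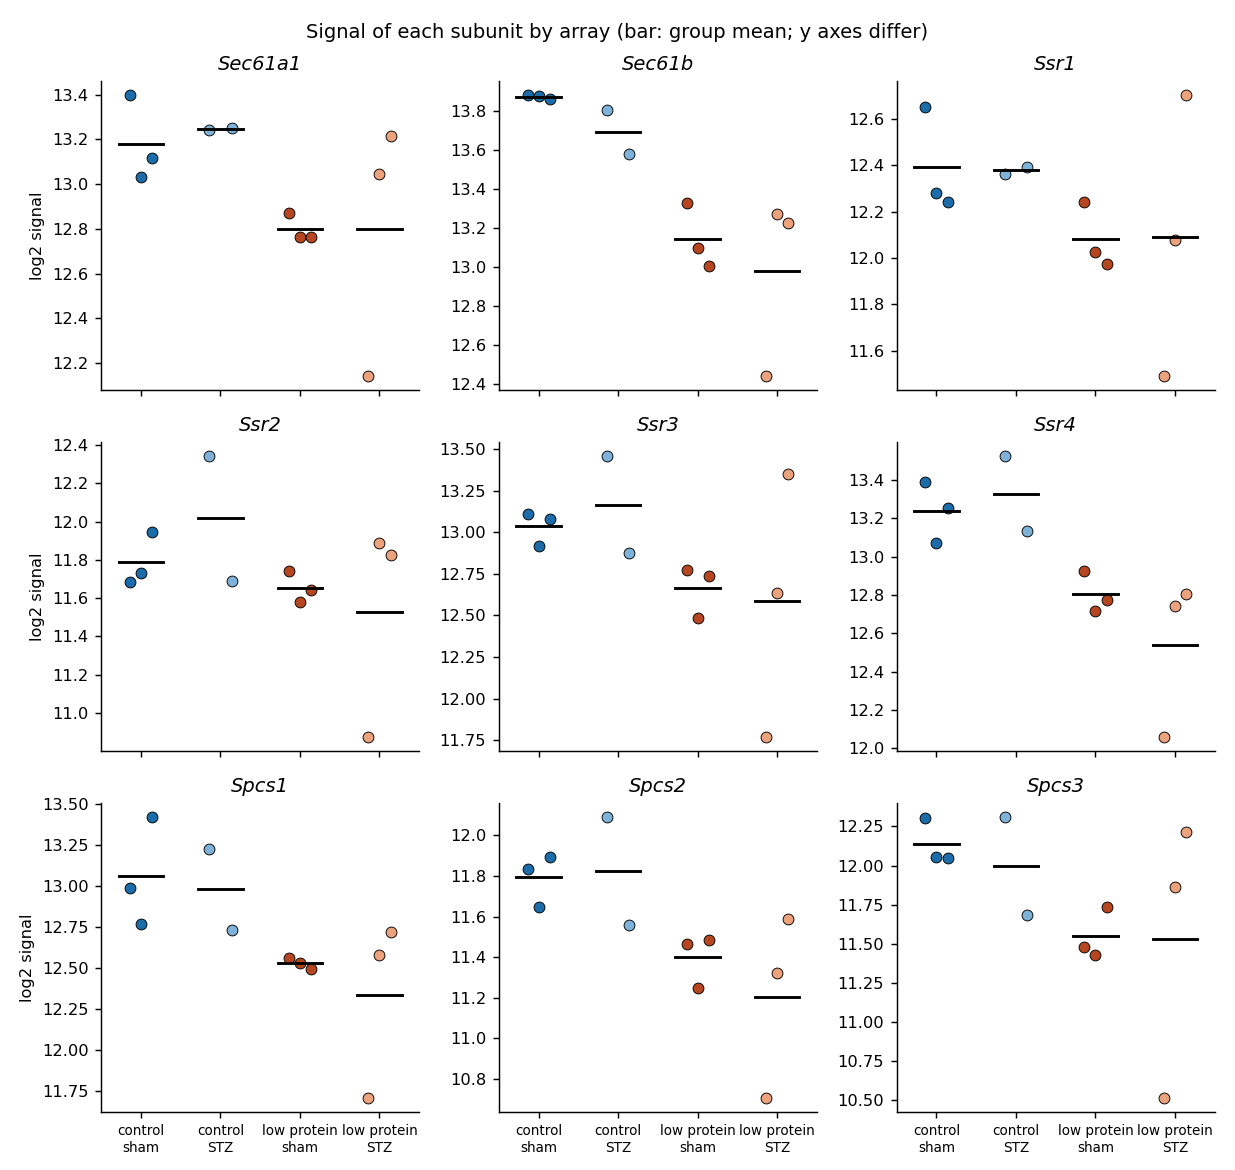
Log2 signal (y axis, a scale of its own in each panel) of the brightest probe set of each of the 9 subunit genes in the 4 groups (x axis); each point is 1 array and each bar a group mean. Low protein STZ 1 is the lowest point in all 9 panels, and the low protein arrays of Sec61b, Ssr4 and Spcs1 lie below every control diet array.

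Sec61a1 encodes the pore-forming subunit of the channel. Its signal was 13.40, 13.03 and 13.12 in the control sham arrays, 13.24 and 13.25 in control STZ, 12.87, 12.77 and 12.76 in low protein sham, and 12.14, 13.05 and 13.21 in low protein STZ. The low protein sham arrays lay below every control diet array, while low protein STZ 2 and 3 overlapped with the control sham arrays. The diet difference was -0.41 ± 0.17 SE (1.33-fold lower, adjusted p = 0.327 with limma) and did not pass.

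Sec61b encodes a small tail-anchored subunit of the channel. Its signal was 13.88, 13.87 and 13.86 in the control sham arrays, 13.80 and 13.58 in control STZ, 13.33, 13.10 and 13.01 in low protein sham, and 12.44, 13.27 and 13.23 in low protein STZ. The control sham arrays were nearly identical, and no low protein array reached the lowest control array. Group means were 13.87 ± 0.01 (SD), 13.69 ± 0.16, 13.15 ± 0.17 and 12.98 ± 0.47 in the same order. The diet difference was -0.72 ± 0.14 (95% interval -1.03 to -0.40; adjusted p = 0.0627 with limma). It missed the threshold in the fit of all arrays, where the smallest adjusted p of any probe set was 0.0624. Without low protein STZ 1 the difference was smaller (-0.58) and passed (adjusted p = 0.015). It also passed without low protein STZ 2 (-0.79, adjusted p = 0.0461) or 3 (-0.78, adjusted p = 0.0364). With any other single array left out it did not pass (adjusted p from 0.0736 to 0.238 with limma). Over 21 alternatives the Sec61b difference stayed below 0, between -0.79 and -0.21, with adjusted p from 0.015 to 0.595. It passed in 5 of the 21.

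Of the 4 TRAP genes, Ssr4 alone separated the diets in every array by its brightest probe set. Its dimmer probe sets 1435709_at and 1427096_s_at, given later, did not. Ssr4, the delta subunit, had signals of 13.39, 13.07 and 13.26 in control sham, 13.52 and 13.13 in control STZ, 12.92, 12.72 and 12.77 in low protein sham, and 12.06, 12.74 and 12.81 in low protein STZ. Every low protein array was below every control diet array, and the diet difference was -0.61 ± 0.14 (1.53-fold lower, adjusted p = 0.0808 with limma). Without low protein STZ 1 it was -0.49 with an adjusted p of 0.042, and without low protein STZ 3 it was -0.68 with an adjusted p of 0.0422. With any other single array left out it did not pass.

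Ssr3, the gamma subunit, had signals of 13.11, 12.92 and 13.08 in control sham, 13.46 and 12.88 in control STZ, 12.78, 12.48 and 12.74 in low protein sham, and 11.77, 12.64 and 13.35 in low protein STZ. The sham groups did not overlap, but the STZ groups did, since low protein STZ 3 exceeded control STZ 3. Its diet difference was -0.47 ± 0.24 (adjusted p = 0.426 with limma).

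Ssr1, the alpha subunit, had signals of 12.65, 12.28 and 12.24 in control sham, 12.36 and 12.39 in control STZ, 12.24, 12.02 and 11.98 in low protein sham, and 11.49, 12.08 and 12.70 in low protein STZ. The highest and the lowest of the 11 arrays were both low protein STZ arrays. Ssr2, the beta subunit, had signals of 11.68, 11.73 and 11.94 in control sham, 12.34 and 11.69 in control STZ, 11.74, 11.58 and 11.64 in low protein sham, and 10.88, 11.89 and 11.82 in low protein STZ. Here all group pairs of the diets overlapped. The diet differences of Ssr1 (-0.30 ± 0.18, adjusted p = 0.525) and Ssr2 (-0.31 ± 0.19, adjusted p = 0.517, both with limma) were the smallest of the 9 genes.

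The signal peptidase genes encode membrane subunits that accompany the catalytic subunits. Spcs1 had signals of 12.99, 12.77 and 13.42 in control sham, 13.23 and 12.73 in control STZ, 12.56, 12.53 and 12.50 in low protein sham, and 11.71, 12.58 and 12.72 in low protein STZ. The diets did not overlap, although low protein STZ 3 at 12.72 all but reached control STZ 3 at 12.73. The difference was -0.59 ± 0.19 (1.50-fold lower, adjusted p = 0.208 with limma).

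Spcs2 had signals of 11.84, 11.65 and 11.89 in control sham, 12.09 and 11.56 in control STZ, 11.47, 11.25 and 11.49 in low protein sham, and 10.71, 11.32 and 11.59 in low protein STZ. Spcs3, the subunit that the catalytic core needs for activity in yeast, had signals of 12.31, 12.05 and 12.05 in control sham, 12.31 and 11.68 in control STZ, 11.48, 11.43 and 11.74 in low protein sham, and 10.51, 11.86 and 12.22 in low protein STZ. For both genes the sham groups did not overlap between diets and the STZ groups did. The diet difference was -0.51 ± 0.15 for Spcs2 (adjusted p = 0.184) and -0.53 ± 0.26 for Spcs3 (adjusted p = 0.433, both with limma), whose low protein STZ arrays had the largest SD of any subunit, 0.90.

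In sham animals alone (n = 3 and 3) the differences ranged from -0.73 ± 0.19 for Sec61b (1.66-fold lower, adjusted p = 0.246 with limma) to -0.13 ± 0.25 for Ssr2 (adjusted p = 0.913), with a median of -0.39. None of the 22 probe sets passed (0% of all tested), and 3 had an unadjusted p under 0.05, all lower, against a background of 6.64%. That background is mostly of dimmer probe sets. Of the 651 probe sets with mean signals between 11.53 and 13.40, the range of the 9 genes, 42.4% were lower at that p. Of the 9 genes, 2 were. In 7 of the 9 genes, all but Ssr1 and Ssr2, and in 11 of 22 probe sets, no low protein sham array reached the lowest control sham array, against 9.42% of all probe sets tested. In a fit of these 6 arrays alone, Sec61b passed with an adjusted p of 0.0492 with limma, as did 119 of all probe sets. Without low protein STZ 1 in the full fit it passed with an adjusted p of 0.0156, and 304 of all probe sets did. With cyclic loess the sham median over the 9 genes was -0.08, and with quantile normalization it was 0.01.

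In STZ-injected animals (n = 2 control and 3 low protein) the median difference was -0.58, from -0.79 ± 0.21 for Ssr4 (1.73-fold lower, adjusted p = 0.422 with limma) to -0.29 ± 0.27 for Ssr1. None of the 22 probe sets passed (0% of all tested), and 6 had an unadjusted p under 0.05, all lower, against 6.62% of all tested. That count was 1 with cyclic loess, 2 with quantile normalization, 1 without control STZ 1, 3 without low protein STZ 1 and 16 without low protein STZ 3. Of the 651 probe sets in the brightness range of the 9 genes, 44.9% were lower at an unadjusted p under 0.05. Of the 9 genes, 4 were. The low protein STZ arrays lay below both control STZ arrays for Sec61a1, Sec61b, Ssr4 and Spcs1, a pattern shown by 14.7% of all probe sets. Without low protein STZ 1 the median was -0.17, and the differences of Ssr1 (0.01) and Spcs3 (0.04) were then above 0.

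The size of these differences went with how bright a probe set was. The median diet difference over all probe sets tested was -0.28 for mean signals between 11 and 12, -0.44 between 12 and 13 and -0.60 between 13 and 14. The 9 subunit genes had mean signals between 11.53 and 13.40. The 651 probe sets in that range, the subunits' own included, had a median diet difference of -0.42, with the middle 50% between -0.58 and -0.20, and 61.9% of them were lower at an unadjusted p under 0.05. Of the 9 genes, 5 were lower at that p. Of the 9 genes, 6 lay below that median and 3, Sec61b, Ssr4 and Spcs1, below the lower bound of the middle 50%. The part that overall brightness has in the diet differences of the subunits was not tested beyond this and the rescaled values that follow.

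**Figure D2:**
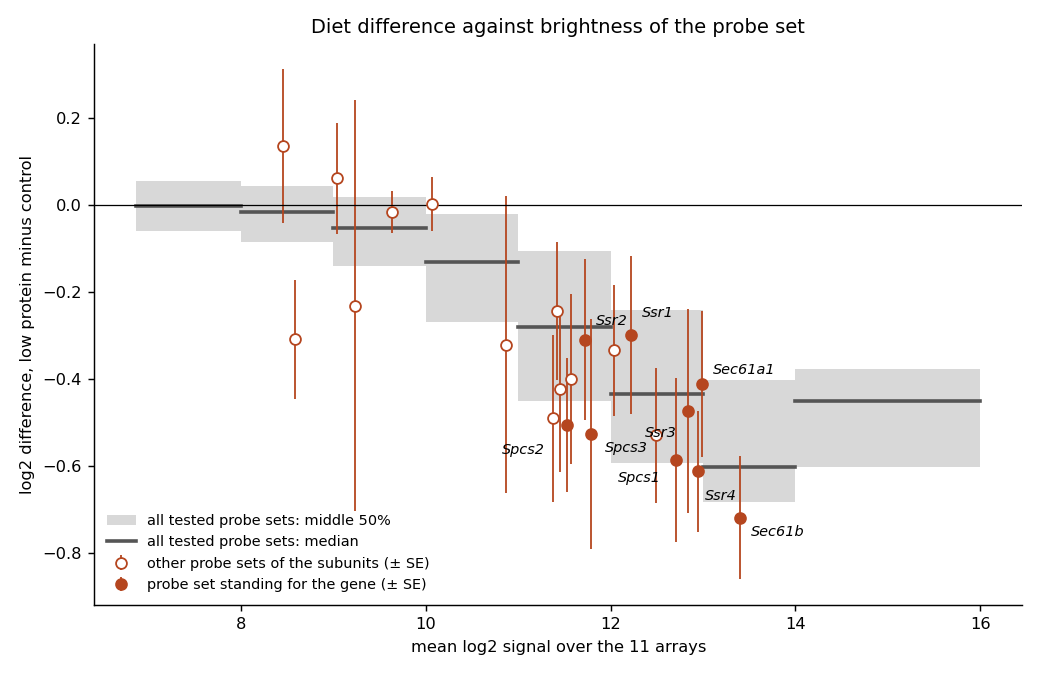
Diet difference (low protein minus control, averaged over injections, log2; y axis) against the mean signal over the 11 arrays (log2; x axis) of the 22 subunit probe sets, with SE bars; grey bars show the median and the middle 50% of all tested probe sets in bands of signal. The subunit genes lie where probe sets in general were lower, with Sec61b at -0.72 in a band whose median was -0.60.

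Scalings that make the arrays alike along the whole range of signals reduced the differences. With cyclic loess the median over the 9 genes was -0.20 and with quantile normalization -0.15. Sec61b was then at -0.26 and -0.21 (adjusted p = 0.207 and 0.281 with limma). Sec61a1 came to 0.00 and 0.03 and Ssr1 to 0.03 and 0.04, so that their direction turned. The other 7 genes stayed below 0, with Spcs2 at -0.25 and -0.23, Spcs3 at -0.24 and -0.23, Spcs1 at -0.20 and -0.19, Ssr4 at -0.20 and -0.15, Ssr3 at -0.07 and -0.04, and Ssr2 at -0.03 and -0.02. When the hybridisation controls entered as a covariate, the median was -0.23 and Sec61b stood at -0.58 (adjusted p = 0.595).

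**Figure D3:**
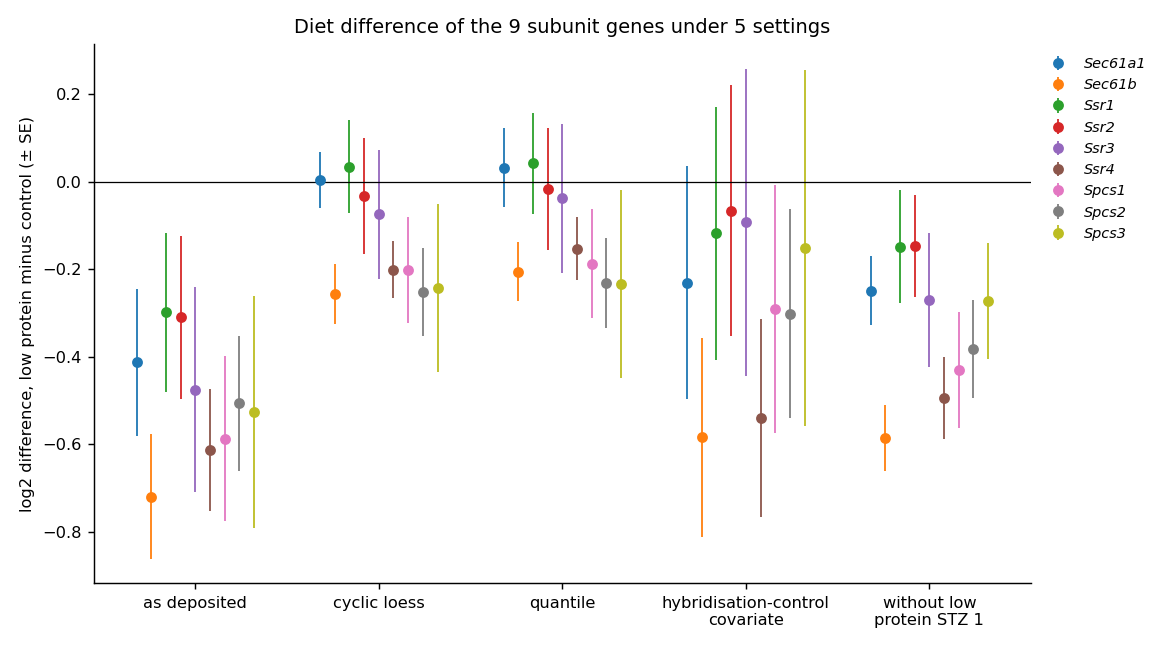
Diet difference (log2, low protein minus control, averaged over injections; y axis) of the 9 subunit genes under 5 settings (x axis), with SE bars. Sec61b is the lowest point as deposited (-0.72), and Sec61a1 and Ssr1 lie at or above 0 with cyclic loess and quantile normalization.

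STZ left smaller differences in these genes. In the control diet (n = 2 STZ and 3 sham) they ranged from -0.18 ± 0.21 for Sec61b to 0.23 ± 0.28 for Ssr2, with a median of 0.03. With limma, 0 of 22 probe sets passed (0% of all tested) and 0 had an unadjusted p under 0.05 (4.14% of all tested). For Sec61b the 2 STZ arrays were under the lowest sham array, a pattern shown by 7.78% of probe sets. The control STZ arrays differed from each other, with control STZ 1 the highest of all 11 arrays for 5 of the 9 genes. Without control STZ 1 the median was -0.16 and without control STZ 3 it was 0.17.

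In the low protein diet (n = 3 and 3) the STZ differences ranged from -0.27 ± 0.19 for Ssr4 to 0.01 ± 0.24 for Ssr1, with a median of -0.12. Again 0 of 22 probe sets passed (0% of all tested) or had an unadjusted p under 0.05 (2.34% of all tested). The median was 0.20 without low protein STZ 1 and -0.36 without low protein STZ 3. Without low protein STZ 1, 5 of 22 probe sets had an unadjusted p under 0.05, all higher, against 1.37% of all tested that were higher at that p in the same fit, with Spcs3 at 0.49 ± 0.19 and Sec61a1 at 0.33 ± 0.11 (adjusted p = 1 each with limma). Over both diets the median was -0.08, with Sec61b at -0.17 ± 0.14, and 0 of 22 probe sets passed (0%) or had an unadjusted p under 0.05 (3.07%). That median turned without low protein STZ 1 (0.15) or control STZ 3 (0.03) and with cyclic loess (0.02), and was -0.17 when low protein STZ 3 was left out and -0.19 when control STZ 1 was. With so few arrays the 95% intervals were wide, from -0.49 to 0.14 for Sec61b and from -0.66 to 0.51 for Spcs3. Differences anywhere within them were compatible with the values.

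The difference between the STZ effects of the diets was tested as an interaction, low protein minus control. Its median over the 9 genes was -0.12, from -0.36 ± 0.28 for Ssr4 to 0.12 ± 0.53 for Spcs3. With limma, 0 of 22 probe sets passed (0% of all tested) and 0 had an unadjusted p under 0.05 (3.56% of all tested). The sign of the median turned without low protein STZ 1 (0.20), control STZ 1 (0.04) or control sham 2 (0.01) and with the hybridisation control covariate (0.01), and the median was -0.36 without control STZ 3, -0.31 without low protein STZ 3, -0.24 without low protein STZ 2 and -0.23 without control sham 3. In the test of any difference among the 4 groups 0 of 22 passed (0%). There, 4 of 22 probe sets had an unadjusted p under 0.05 with limma, against 8.59% of all tested. These were 1 each of Sec61b (adjusted p = 0.227), Ssr4 (adjusted p = 0.306), Spcs1 (1416220_at, adjusted p = 0.52) and Spcs2 (adjusted p = 0.552).

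Probe sets of 1 gene did not always give the same values. For Spcs1, Spcs2 and Ssr3 the second probe set had a diet difference close to the first: -0.53 ± 0.16 for 1416220_at of Spcs1, -0.49 ± 0.19 for 1423215_at of Spcs2 and -0.42 ± 0.19 for 1447053_x_at of Ssr3. For Ssr4, whose brightest probe set differed by -0.61, the dimmer sets 1435709_at (0.00 ± 0.06) and 1427096_s_at (-0.02 ± 0.05) stood near 0, with 95% intervals of -0.14 to 0.14 and -0.12 to 0.09. Of the 4 Ssr1 probe sets, 1417764_at stood at -0.40 ± 0.20, while 1448843_at (0.06 ± 0.13) and 1441327_a_at (0.14 ± 0.18) were above 0. Which transcripts these probes bind was not tested.

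Sec61a1 had 6 probe sets. Beside the brightest at -0.41, the diet difference was -0.33 ± 0.15 for 1434986_a_at, -0.24 ± 0.16 for 1448242_at and -0.31 ± 0.14 for 1455987_at. Of its dimmer sets, 2 followed another pattern. The signal of 1416190_a_at was 9.46, 8.50 and 9.55 in control sham, 10.45 and 8.72 in control STZ, 8.99, 8.96 and 10.09 in low protein sham, and 8.48, 7.98 and 10.38 in low protein STZ. It was high in control STZ 1, low protein sham 3 and low protein STZ 3, 1 array from each of 3 groups. On these arrays the Gapdh 3′ control probe set exceeded its 5′ partner by the smallest amounts, 0.97, 1.13 and 1.32, against 1.40 to 1.85 on the other 8. The same difference of the Actb controls was 1.20, 1.31 and 1.49 on these arrays and 1.47 to 2.09 on the other 8, so it did not single out low protein STZ 3. This difference rises when RNA is degraded or copied short of its 5′ end. The same 3 arrays were the highest for 1416191_at, at 11.68, 11.31 and 11.72. The diet differences of both sets had wide errors (-0.23 ± 0.47 and -0.32 ± 0.34), and the part of RNA quality in them was not tested.

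**Figure D4:**
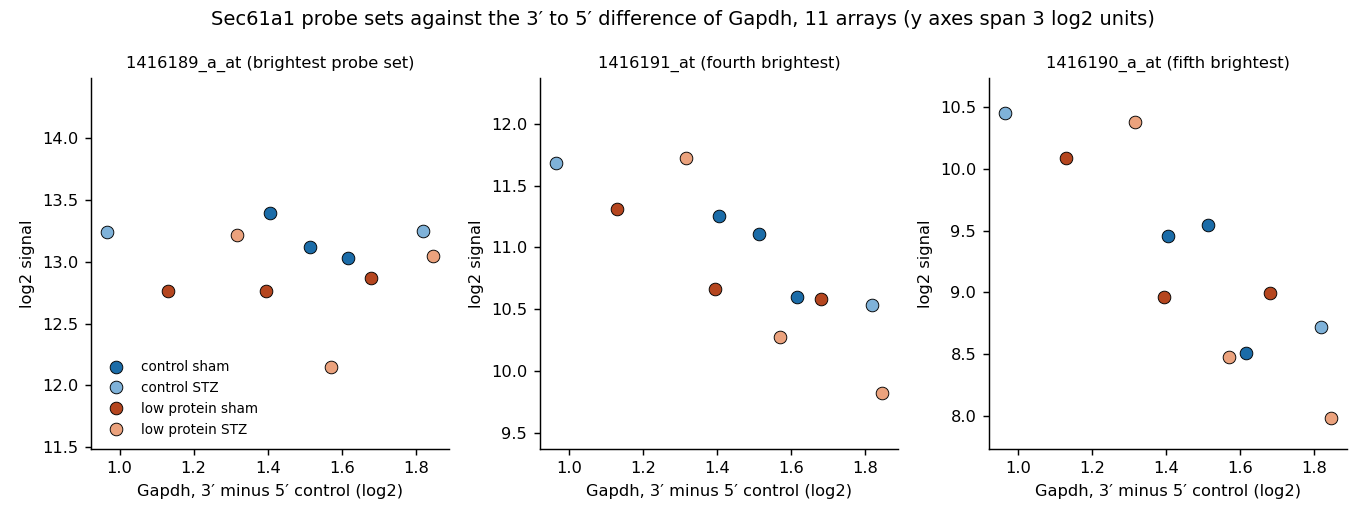
Log2 signal of 3 Sec61a1 probe sets (y axes, each spanning 3 log2 units) against the 3′ minus 5′ difference of the Gapdh control probe sets (log2; x axis), 1 point per array. For 1416190_a_at and 1416191_at the 3 arrays with the smallest Gapdh difference are the highest, which the brightest set, 1416189_a_at, does not show.

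Over the 11 arrays the subunits varied together. The correlation of each gene with the mean of the other 8 ran from 0.83 for Ssr1 to 0.97 for Spcs2, a description of arrays that share groups, scaling and the low array low protein STZ 1. Of 15892 other genes, the 6 whose profiles were most like the mean of the centred subunit profiles were Arf1 (Pearson r = 0.98), Tspan13 (0.98), Tcp1 (0.97), Mdh1 (0.97), BC031181 (0.97) and Cope (0.97). In all, 212 genes had an r above 0.9. Arf1 and Cope encode parts of the vesicle coat that serves transport between Golgi and ER, Tcp1 is a subunit of a cytosolic chaperonin and Mdh1 is a cytosolic malate dehydrogenase. Their diet differences were -0.44 ± 0.17 for Arf1 and -0.45 ± 0.14 for Cope. Without low protein STZ 1 the r of Arf1 was 0.96 and that of Cope 0.91.

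Because the subunits varied together, the 250 bases before the gene start were searched for motifs of the unfolded protein response, the programme that raises ER genes when unfolded proteins build up. Windows were held for 7 of the 10 genes, from RefSeq on GRCm38.p6: Sec61b, Sec61g, Ssr1, Ssr3, Ssr4, Spcs1 and Spcs2. The windows of Ssr3 and Spcs2 each held CCAAT and CCACG, the letters of the ER stress response element, but not as that element. CCACG came first, 190 bases before the start in Ssr3 (CCAAT at 151 and 111) and 246 in Spcs2 (CCAAT at 45). In the element CCAAT comes first. Of all windows, 33.8% held CCAAT and 28.3% held CCACG, and the share with both was not counted. Printed here are the windows of the 3 genes whose diets did not overlap, and that of Ssr3. They read 5′ to 3′ towards the start on the gene's strand, and capitals mark 3 motifs found on either strand, the letters CCAAT, the letters CCACG and the core ACGTG, of which the last can overlap with the one before it. The windows lie at chr4:47474411-47474660 on the plus strand (Sec61b), chrX:73786773-73787022 on the plus strand (Ssr4), chr14:31001667-31001916 on the minus strand (Spcs1) and chr3:65392554-65392803 on the minus strand (Ssr3).
Sec61b: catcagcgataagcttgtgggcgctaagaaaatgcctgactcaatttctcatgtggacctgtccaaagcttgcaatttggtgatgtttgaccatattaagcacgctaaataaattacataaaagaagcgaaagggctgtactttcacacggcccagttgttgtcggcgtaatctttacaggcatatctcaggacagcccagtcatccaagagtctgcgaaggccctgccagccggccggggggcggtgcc
Ssr4: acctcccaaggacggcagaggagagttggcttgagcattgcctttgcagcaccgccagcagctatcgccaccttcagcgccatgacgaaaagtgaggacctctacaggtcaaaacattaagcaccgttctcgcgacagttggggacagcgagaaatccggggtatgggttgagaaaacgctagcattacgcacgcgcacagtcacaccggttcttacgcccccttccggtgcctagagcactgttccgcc
Spcs1: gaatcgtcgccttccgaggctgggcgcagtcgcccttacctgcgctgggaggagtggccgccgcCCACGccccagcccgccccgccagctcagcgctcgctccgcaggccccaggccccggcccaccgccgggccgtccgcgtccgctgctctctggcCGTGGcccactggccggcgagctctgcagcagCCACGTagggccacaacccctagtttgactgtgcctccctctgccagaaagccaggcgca
Ssr3: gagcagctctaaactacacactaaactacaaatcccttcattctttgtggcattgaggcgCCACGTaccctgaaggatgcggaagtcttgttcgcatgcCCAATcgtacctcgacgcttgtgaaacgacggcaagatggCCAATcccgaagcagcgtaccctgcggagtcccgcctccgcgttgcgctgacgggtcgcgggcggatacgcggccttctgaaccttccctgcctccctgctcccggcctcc

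The whole ER stress response element, CCAAT and CCACG with 9 bases of any kind between them, was in 0 of the 7 windows and in 0.113% of all 32851 windows held. CCACG, the part bound by ATF6 and XBP1, was in Ssr1, Ssr3, Spcs1 and Spcs2, against 28.3% of all windows. CCAAT was in Sec61g, Ssr3 and Spcs2, against 33.8%. ACGTG, the core bound by XBP1, was in Ssr1, Ssr3 and Spcs1, against 16.6%. The windows of Sec61b and Ssr4, the genes with the largest diet differences, held none of these letters, which says nothing about sites elsewhere.

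Other genes of protein entry into the ER also had lower mean signals in low protein pancreas, and none passed. Over all probe sets tested, 59.7% were below 0 and 9.79% were lower at an unadjusted p under 0.05. In the bands of mean signal above 11, the share lower at that p ran from 45% to 81.2%. Whether the list counts exceed those of equally bright probe sets was not tested. The catalytic subunits of signal peptidase, Sec11c (-0.64 ± 0.13, adjusted p = 0.0627 with limma) and Sec11a (-0.26 ± 0.08, adjusted p = 0.199), were both lower at an unadjusted p under 0.05. Among 9 other translocon partners, 7 were below 0, the median was -0.27 and 3 had an unadjusted p under 0.05, all lower. These 3 were Tram1 (-0.62 ± 0.22), which contacts emerging signal peptides, Tmem109 (-0.33 ± 0.14), an ER membrane protein, and Sil1 (-0.27 ± 0.10), the nucleotide exchange factor of the chaperone BiP. The signal recognition particle and its receptor, which bring ribosomes to the channel, had 8 of 10 genes tested, 7 below 0, a median of -0.22 and 3 lower at that p. Examples were Srp9 (-0.53 ± 0.14) and Srp14 (-0.50 ± 0.11), partners in the domain that pauses translation.

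The shares over all probe sets tested, 59.7% below 0 and 9.79% lower at an unadjusted p under 0.05, apply to the following counts too. Genes of the oligosaccharyltransferase, which attaches sugar chains beside the channel, were below 0 in 12 of 12 cases, with a median of -0.36 and 6 lower at an unadjusted p under 0.05. Its small subunits Krtcap2 (-0.67 ± 0.15, adjusted p = 0.0784 with limma) and Ost4 (-0.43 ± 0.12, adjusted p = 0.152) were examples. The ER membrane complex, which inserts other membrane proteins, had 9 of 10 genes below 0, a median of -0.24 and 6 lower at that p. Of 4 genes listed as signal peptide peptidases, 3 were tested, the signal peptide peptidase-like genes Sppl3, Sppl2a and Sppl2b. All 3 were lower at that p, with a median of -0.19. In the tail-anchor pathway, which does not use the SEC61 channel, 4 of 5 genes tested were below 0, the median was -0.05, and Bag6, a chaperone of tail-anchored proteins, was at 0.20 ± 0.06 (adjusted p = 0.186). Of 25 unfolded protein response genes, 23 were below 0 with a median of -0.30 and 5 lower at an unadjusted p under 0.05. Xbp1, its transcription factor, was at -0.52 ± 0.12 (adjusted p = 0.0993), and Dnajb9, an ER co-chaperone and target of Xbp1, at -0.62 ± 0.19 (adjusted p = 0.194). With cyclic loess and quantile normalization the medians of these lists came closer to 0, at -0.13 and -0.11 for the oligosaccharyltransferase, -0.16 and -0.14 for the ER membrane complex, -0.02 and -0.01 for the unfolded protein response and -0.03 and 0.00 for the translocon partners. Without low protein STZ 1 the medians were -0.17 for the unfolded protein response, -0.14 for the translocon partners and -0.13 for the signal recognition particle, and that of the tail-anchor list turned to 0.01, as it did with the hybridisation control covariate (0.04). With cyclic loess and quantile normalization, in that order, Sec11a and Sec11c together had medians of -0.18 and -0.15. The same scalings turned the median of the signal recognition particle list to 0.00 and 0.02. They turned that of the signal peptide peptidase-like genes to 0.00 and 0.03, while the tail-anchor list stood at -0.02 and turned to 0.00. The lists were compared with the subunits by these counts only, and a difference between them was not tested.

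**Figure D5:**
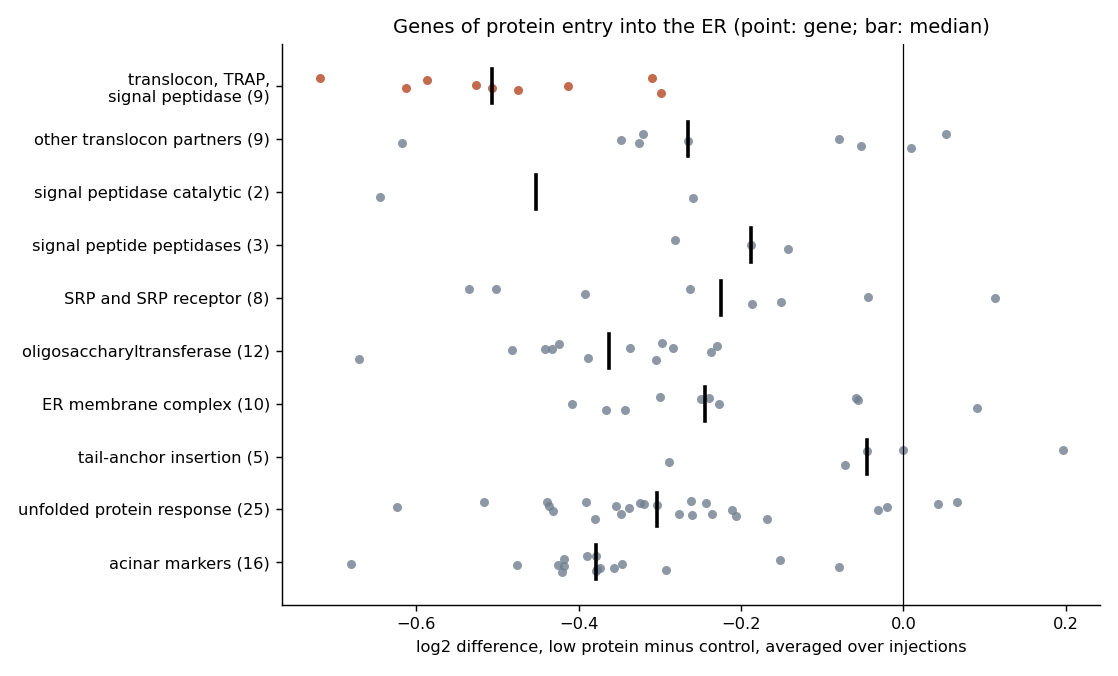
Diet difference (log2, low protein minus control, averaged over injections; x axis) of the genes tested in each list (y axis, number of genes in brackets); each point is 1 gene and each bar the median of its list. In the values as deposited, shown here, the 9 subunits (median -0.51), the 12 oligosaccharyltransferase genes (median -0.36) and the 16 acinar markers (median -0.38) all lie below 0. With cyclic loess 7 of the 9, 12 of the 12 and 3 of the 16 were below 0. With quantile normalization 7, 11 and 12 were, in that order.

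Markers of the cells that could carry these transcripts were read for the same contrast, and none passed. Again 59.7% of all probe sets tested were below 0 and 9.79% were lower at an unadjusted p under 0.05, more among bright ones. All 16 acinar markers tested were below 0 for the diet averaged over injections (median -0.38, 13 lower at an unadjusted p under 0.05), among them the enzymes Cpb1 (-0.43 ± 0.08, adjusted p = 0.0627), Cela2a (-0.38 ± 0.08, adjusted p = 0.0648) and Prss2 (-0.36 ± 0.07, adjusted p = 0.0634, all with limma). With cyclic loess the direction of the acinar markers turned, to a median of 0.27 with 3 of 16 below 0, and with quantile normalization the median was -0.01. The log2 of their summed signal as deposited was 19.26 to 19.35 in control sham, 19.13 to 19.21 in control STZ, 18.87 to 18.92 in low protein sham and 18.51 to 19.00 in low protein STZ. Of 11 β-cell markers 7 were tested, all 7 below 0 with a median of -0.42 (-0.09 with cyclic loess, -0.07 with quantile normalization, -0.23 without low protein STZ 1). The log2 of the summed β-cell signal was 15.87 to 16.26, 14.62 to 14.68, 14.47 to 15.42 and 14.07 to 14.76 in the same order, highest in control sham. Markers of plasma cells, which also rely on this route, were 4 of 7 below 0 with a median near 0, and their summed signal was 11.66 to 11.81 in all arrays. B-cell markers had a median of -0.03, duct markers -0.11 (0.10 with cyclic loess and 0.11 with quantile normalization), stroma -0.13, endothelium -0.15, macrophages -0.18, adipocytes -0.33 (2 of 6 tested) and T cells 0.22 (3 of 6 tested). The hybridisation control covariate turned the medians of the macrophage (0.10), B-cell (0.09) and T-cell (-0.06) markers. The part of cell composition in the subunit differences was not tested.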

How the data were processed

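The deposited values of the 11 mouse arrays are the authors' log2 signals of 45101 probe sets. Per the submitters' processing notes the tools include Partek 6.5 and RMA, with no role stated. A build is not given in the sources used here. Gene symbols came from GEO's annotation of the platform, 34958 probe sets with 1 symbol, 932 with several (not used for naming) and 9211 with none. No further scaling was applied.

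With limma 3.58.1 in R 4.3.3, 1 model of 4 group means was fitted to the 33777 probe sets, 64 control sets left out, with a mean above the 0.25 quantile (6.86) of all means. Contrasts were tested two-sided (lmFit, eBayes), with Benjamini-Hochberg adjustment over all of them. The fit was tested on simulated data. Promoters came from RefSeq, and figures from matplotlib 3.10.9 in Python 3.11.15. Precision is limited by the number of arrays, and contrasts that share a group are not independent.

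Deviations of same-numbered arrays of different groups from their group means correlated unevenly (15 pairs, r from -0.32 to 0.28, 5 over 0.1). The numbers were not used as pairs. The deviations of the 2 control STZ arrays are mirror images of each other, so this check cannot decide whether the numbers pair the arrays. The members and gene lists were chosen with earlier results of these data known. All members are named, with up to 3 genes per list by the smallest p of the test among the 4 groups, and the 6 genes most like the subunits. Alternatives were no filter, 1 probe set per gene, cyclic loess, quantile normalization, trend and robust moderation, array weights, a replicate block, an RNA integrity covariate, only the groups compared, unadjusted p-values and each array left out. A covariate for the hybridisation controls, the fit without control sham 1 and low protein STZ 1, the bands of brightness and the rescaled list medians were chosen after seeing the data.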

Additional observations from a re-analysis of the deposited data

How the results depend on the processing

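For the diet averaged over injections, 0 subunit probe sets passed in the fit reported. The number was 2 with array weights (Sec61b, -0.67, adjusted p = 0.0316; Ssr4, -0.58, adjusted p = 0.0357, with limma), 1 without control sham 1 and low protein STZ 1 together (Sec61b, -0.58, adjusted p = 0.0372), and 0 to 2 with 1 array left out. The median over the 9 genes was -0.15 with quantile normalization and -0.67 to -0.27 with 1 array left out. Sec61a1 turned to 0.0035 with cyclic loess and 0.032 with quantile normalization, and Ssr1 to 0.034 and 0.042. In sham animals, 0 passed, 1 with only the groups compared (Sec61b, adjusted p = 0.0492) or without those 2 arrays (Sec61b, -0.72, adjusted p = 0.0494), and 0 to 1 with 1 array left out. There, quantile normalization gave a median of 0.0070 and turned Sec61a1 (0.035), Ssr1 (0.0070), Ssr2 (0.14), Ssr3 (0.039) and Ssr4 (0.0081), cyclic loess turned Ssr2 (0.096), and so did the hybridisation control covariate (0.059). With 1 array left out, the medians ran from -0.47 to -0.36 in sham. In STZ animals the median was -0.16 with cyclic loess, -0.19 with quantile normalization, -0.22 with the hybridisation control covariate, -0.17 without those 2 arrays and -0.82 to -0.17 with 1 array left out. Sec61a1 turned to 0.031 and 0.030 with these scalings, Ssr1 to 0.099 and 0.078, and without those 2 arrays Ssr1 (0.013) and Spcs3 (0.044) turned as well. With 1 array left out, Ssr1 ran from -0.59 to 0.013 and Spcs3 from -0.81 to 0.044. At an unadjusted p under 0.05 the counts were 10 for the averaged diet, 3 in sham, 6 in STZ and 4 for any difference among groups. For the averaged diet that count of 10 was 2 with quantile normalization, 3 with cyclic loess or the hybridisation control covariate, 6 with the replicate block, 5 with 1 probe set per gene (fewer are then tested) and 4 to 15 with 1 array left out. Over all probe sets, where 0 passed for the averaged diet, 851 did with array weights, 22 with quantile normalization, 196 without those 2 arrays and 0 to 623 with 1 array left out. In sham, 119 did with only the groups compared, 100 without those 2 arrays and 0 to 304 with 1 array left out, and the 3 subunit probe sets at an unadjusted p under 0.05 became 13, 7 and 1 to 10. In STZ animals the 6 became 1 with cyclic loess or the hybridisation control covariate, 2 with quantile normalization or only the groups compared, 3 without those 2 arrays and 1 to 16 with 1 array left out. The causes were not tested.

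Whether the replicate numbers pair the arrays was not settled, and 2 of 11 correlated best with an array of their own number. With the replicate block, 0 subunit probe sets passed, and the medians were -0.49 for the averaged diet, -0.39 in sham and -0.54 in STZ. Of 331 alternative values for the main counts and medians, 312 moved by less than the spread between replicates or, for counts, stayed within 1.5 times. That spread, the pooled SD of the subunits' mean profile, was 0.33. The averaged-diet median could thus go from -0.51 to -0.20 with cyclic loess and not be counted as moved. Counts of 0 that stayed 0 are also among the 312, so this number does not show that the medians are stable. Few arrays and, for the diet, the unlike signal of bright probe sets limit these values.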

Other observations

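The STZ differences in the control diet are given here for genes of the unfolded protein response beside the subunits. Of the 25 response genes, none of them a subunit described here, 5 were below 0 and the median was 0.24, with 2 higher at an unadjusted p under 0.05 (1.91% of all probe sets tested were) and none passing with limma, while the 9 subunits had a median of 0.03 with 4 below 0. In the low protein diet the response genes had a median of -0.01 and the subunits -0.12. Whether the lists differ was not tested, and control STZ 1, the highest array for 5 of the 9 subunits, is 1 of only 2 arrays behind the value in the control diet. The subunit median was -0.16 without that array and 0.17 without the other.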
